A study of Mus musculus with 8 samples.

Results

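The genes described here are the steroid hormone receptors of the mouse endometrium and 2 genes that those receptors switch on directly. The set held 9 genes, chosen by their symbols among the 52325 genes of the count table: the estrogen receptors Esr1 and Esr2, the progesterone receptor Pgr, the glucocorticoid receptor Nr3c1, the mineralocorticoid receptor Nr3c2, the membrane estrogen receptor Gper1, the membrane progesterone-binding protein Pgrmc1, the estrogen target Greb1 and the glucocorticoid and progesterone target Fkbp5. All 9 were found, and 8 passed the filter on low counts that left 18174 genes to test, with Esr2 below it. RNA-seq had been performed on endometrium cut by laser from uterine sections of female mice, with 4 libraries from Thra1PV/+ mice and 4 libraries from wild-type (WT) mice. Thra1PV/+ mice carry on 1 allele the PV mutation of the thyroid hormone receptor gene Thra, a germline frameshift that gives a dominant negative receptor in every tissue that expresses it, so that the uterus, the ovary and the pituitary are all mutant. All mice had been brought to metestrus, the phase that follows ovulation, by exposure to male scent, with the phase read by an impedance meter and by eye. No hormone had been given, and the age of the mice and whether littermates were used are not given in the sources used here. The study reports higher estradiol and progesterone per uterus weight in mutant than in WT uteri, measured in few mice. It saw no apparent difference between the genotypes when it stained for the estrogen and progesterone receptor proteins.

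Estrogen and progesterone act through receptors of the nuclear receptor family, which sit in complexes with heat shock proteins, bind DNA once the hormone is bound, and recruit coregulators. In the uterus, estrogen drives growth and secretion of the epithelium and raises the progesterone receptor, while progesterone acting in stroma and epithelium stops that growth and prepares the tissue for implantation. Glucocorticoids and mineralocorticoids act through close relatives that recognise a near-identical DNA element, shared with the progesterone receptor. Because ovarian hormones rise and fall over the cycle, the levels of these receptors and of their targets also differ from phase to phase.

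Upstream sequences are shown for the 3 members whose transcription is most often used as a readout of hormone action, so that the response elements in reach of each start site can be seen beside the values. Each line gives the 250 bases before a RefSeq transcription start, 5′ to 3′ on the strand of the gene, taken from the RefSeq table of assembly GRCm38.p6. Capitals mark the estrogen response half-sites GGTCA or TGACC, the hormone response half-sites AGAACA or TGTTCT and the GC boxes GGGCGG or CCGCCC. None of these 3 windows touched an annotated exon.
Pgr, chr9:8899583-8899832, plus strand: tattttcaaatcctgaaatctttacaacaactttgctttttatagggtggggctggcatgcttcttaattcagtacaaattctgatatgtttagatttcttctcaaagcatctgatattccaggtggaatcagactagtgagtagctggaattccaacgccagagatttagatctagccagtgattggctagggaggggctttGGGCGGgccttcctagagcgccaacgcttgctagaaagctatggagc
Greb1, first start, chr12:16800887-16801136, minus strand: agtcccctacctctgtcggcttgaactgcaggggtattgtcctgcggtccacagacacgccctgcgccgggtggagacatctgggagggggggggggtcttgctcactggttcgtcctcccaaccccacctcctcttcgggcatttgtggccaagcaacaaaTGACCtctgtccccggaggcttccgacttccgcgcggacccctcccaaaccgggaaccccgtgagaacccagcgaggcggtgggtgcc
Fkbp5, chr17:28486150-28486399, minus strand: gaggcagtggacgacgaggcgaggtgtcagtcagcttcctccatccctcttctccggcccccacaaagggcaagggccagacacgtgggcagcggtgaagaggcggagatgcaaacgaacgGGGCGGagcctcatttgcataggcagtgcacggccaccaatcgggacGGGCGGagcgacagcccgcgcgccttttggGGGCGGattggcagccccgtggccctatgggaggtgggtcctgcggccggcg
Both strands were searched, and positions count back from -1 at the base before the start. The Pgr window held a GC box at -47 to -42 and no half-site of either kind. The Greb1 window held 1 estrogen half-site, at -88 to -84, and a second annotated start of Greb1 had a half-site at -194 to -190 and another at -85 to -81. The Fkbp5 window held 3 GC boxes and no half-site. A half-site for estrogen receptors lay in 35.2% of the 32851 promoter windows of the same length, a hormone response half-site in 16.1% and a GC box in 32.7%. The full estrogen element, GGTCA and TGACC with any 3 bases between, lay in 0.0639% of windows, and the full hormone element, AGAACA and TGTTCT with any 3 bases between, in 0.00913%, and neither lay in the windows of these 3 genes. These are matches of letters in a short window, and distal elements were not searched.

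The 8 libraries held 48791883 to 59819099 estimated counts each, and their log2 values correlated with each other at 0.861 to 0.974 across genes. Levels in a library are given as CPM, counts scaled to a common library size. The targeted gene Thra stood at 126.8, 45.8, 67.8 and 80.0 CPM in the 4 Thra1PV/+ libraries and at 110.0, 104.2, 50.3 and 47.4 CPM in WT, and since a gene count adds the mutant and the normal transcript, Thra does not check the labels. The libraries differed in the tissue they held, by marker lists summed in CPM. The 8 simple epithelium markers summed to 2237 to 5410 CPM in Thra1PV/+ and to 2167 to 5643 CPM in WT, so the labelled tissue was present in every library. The 8 squamous epithelium markers summed to 2826 to 4375 CPM in Thra1PV/+ and to 1.26 to 64.4 CPM in WT, with 7 of the 8 called higher. The 9 stroma markers summed to 3255 CPM in Thra1PV/+ library 1 against 423 to 1024 CPM in the other 3, and to 3972 and 3924 CPM in WT libraries 1 and 2 against 1239 and 1491 CPM in WT libraries 3 and 4. WT library 1 stood apart on the 8 smooth muscle markers, where they came to 13143 CPM, while the rest of the WT libraries held 573 to 1146 CPM and Thra1PV/+ held 146 to 687 CPM. Endothelial markers summed to 52.0 to 220.2 CPM in Thra1PV/+ and 72.2 to 243.1 CPM in WT, general leukocyte markers to 335 to 811 and 360 to 429 CPM, neutrophil markers to 74.1 to 721 and 7.10 to 127 CPM, gland markers to 72.1 to 190.1 and 133 to 220 CPM, and ovary and oviduct markers to 11.1 to 15.7 and 23.5 to 112 CPM, with Fshr, Lhcgr and Cyp19a1 at 3 counts or fewer in every library. A gene was called where the genotypes differed by a fold change of 2 or more with an adjusted p of 0.1 or less in edgeR's quasi-likelihood test over all 18174 genes.

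None of the 8 tested members was called, and in none of them did the 2 genotypes fail to overlap. The background was 0.990% of all tested genes called, 0.924% higher and 0.0660% lower in Thra1PV/+, and 6.04% of genes whose genotypes did not overlap. At an unadjusted p under 0.05 in edgeR the members also numbered 0, against 9.77% of all genes, and 0 were called by DESeq2 or by limma with voom. The fitted log2 fold change of Thra1PV/+ over WT was below 0 for 7 of 8, with a median of -0.26 against -0.05 for all tested genes. In bulk tissue, fewer cells that express a receptor and less RNA per cell cannot be told apart, and the sums of squamous, stroma and smooth muscle markers given above differed between the same libraries. The part of those tissues in the members' values was not tested.

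**Figure D1:**
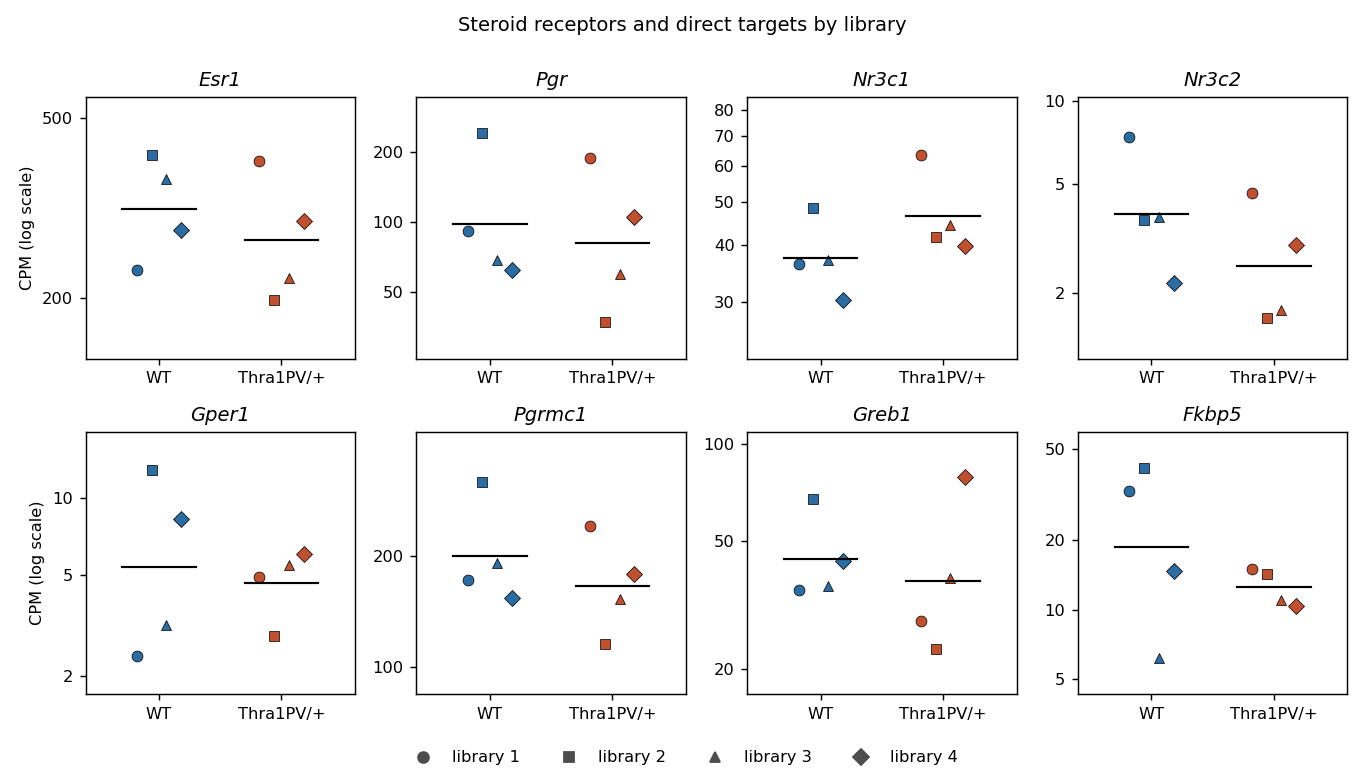
CPM on a log axis for the 8 tested members in the 4 WT and 4 Thra1PV/+ libraries, 1 point a library with its replicate number as the symbol and the geometric mean as a line. The genotypes overlap in all 8 panels, WT library 2 is the highest WT point in 7 of them and Thra1PV/+ library 1 is the highest Thra1PV/+ point in 6.

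Levels were compared between genes per transcript length, as the deposited TPM values, which scale each gene by its length and each library to a common total. Pgrmc1 had the highest median over the 8 libraries, 131 TPM, followed by Esr1 at 63.0 TPM and Pgr at 16.6 TPM. Nr3c1 came next at 9.17 TPM, then Greb1 at 6.26 TPM, Fkbp5 at 4.73 TPM and Gper1 at 2.47 TPM. Nr3c2 stood at 0.689 TPM and Esr2 at 0.0562 TPM. Within a library, Pgrmc1 was above Esr1 and Esr1 above Pgr in 8 of 8, Pgr above Nr3c1 in 7 of 8, Fkbp5 above Gper1 in 8 of 8 and Gper1 above Nr3c2 in 7 of 8. Nr3c1 was above Greb1 in 5 of 8 and Greb1 above Fkbp5 in 4 of 8, so the order of these 3 was not fixed between libraries. The ranges over libraries overlapped for each pair of neighbours other than Nr3c2 and Esr2.

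Esr1, which encodes estrogen receptor alpha, the main mediator of estrogen action in the uterus, lies on chromosome 10 at 4611593 to 5005614 (plus strand, GRCm38, GENCODE M21). It stood at 401.4, 198.0, 221.3 and 295.8 CPM in Thra1PV/+ libraries 1 to 4 and at 230.2, 413.3, 365.6 and 282.9 CPM in WT libraries 1 to 4. Thra1PV/+ library 1 and WT library 2 were the highest, and the genotypes overlapped over nearly their whole range. The log2 fold change was -0.21 (SE 0.27, edgeR adjusted p = 0.863), and the two-sided exact permutation test over 70 arrangements of the libraries gave p = 0.457, where 0.0286 is the smallest it can give.

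Esr2, which encodes estrogen receptor beta, lies on chromosome 12 at 76120419 to 76177259 on the minus strand and overlaps a processed pseudogene on the same strand. It had 21, 7, 4 and 11 counts in Thra1PV/+ and 0, 10, 5 and 5 counts in WT. In WT library 1 a count of 0 allows up to 0.0572 CPM, counting error only. The counts were too few for the main test. Fitted without the filter it gave a log2 fold change of 1.07 (SE 0.92, edgeR adjusted p = 0.675), so at this depth no difference was detectable.

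Pgr, the progesterone receptor and itself an estrogen target, lies on chromosome 9 at 8899833 to 8968611 on the plus strand. It stood at 188.9, 37.1, 59.9 and 104.8 CPM in Thra1PV/+ and at 91.2, 241.5, 68.4 and 62.1 CPM in WT. The highest library was 5.09 times the lowest among Thra1PV/+ and 3.89 times among WT, so each genotype spanned most of the range of the other. The log2 fold change was -0.25 (SE 0.59, edgeR adjusted p = 0.937; exact permutation p = 0.714). It became 0.43 without WT replicate 2 and 0.03 without Thra1PV/+ replicate 2, and was -0.73 without Thra1PV/+ replicate 1.

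Nr3c1, the glucocorticoid receptor, was the 1 of the 8 tested members with a fitted difference above 0. It stood at 63.4, 41.8, 44.4 and 39.9 CPM in Thra1PV/+ and at 36.4, 48.4, 37.0 and 30.3 CPM in WT. WT library 2 lay above 3 of the Thra1PV/+ libraries, and the other 3 WT libraries lay below all of them. This gave a log2 fold change of 0.32 (SE 0.20, edgeR adjusted p = 0.667; exact permutation p = 0.2). Leaving out each library in turn gave 0.20 to 0.49.

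Nr3c2, the mineralocorticoid receptor, which also binds glucocorticoids, lies on chromosome 8 at 76899442 to 77245012 on the plus strand. It stood at 4.63, 1.62, 1.74 and 2.995 CPM in Thra1PV/+ and at 7.38, 3.70, 3.78 and 2.18 CPM in WT. WT library 1, the one with the high smooth muscle sum, was the highest of the 8. For Nr3c2 the log2 fold change was -0.63 (SE 0.48, edgeR adjusted p = 0.738; exact permutation p = 0.2), and -0.19 without that library.

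The 2 membrane proteins were as variable as the nuclear receptors. Gper1 encodes a G protein-coupled receptor that responds to estrogen, and it lies on chromosome 5 at 139423151 to 139427800 (plus strand), where it overlaps the protein-coding gene 3110082I17Rik on the other strand. Gper1 stood at 4.90, 2.88, 5.48 and 6.06 CPM in Thra1PV/+ and at 2.40, 12.9, 3.18 and 8.31 CPM in WT. The Thra1PV/+ libraries thus lay inside the span of the WT libraries, with a log2 fold change of -0.47 (SE 0.54, edgeR adjusted p = 0.841; exact permutation p = 0.743) that became 0.09 without WT replicate 2. Whether the counts used strand is not stated, so reads of the overlapping gene may be shared.

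Pgrmc1 encodes a heme-binding membrane protein tied to rapid progesterone responses and lies on chromosome X at 36598206 to 36606079. It stood at 241.3, 115.7, 153.0 and 179.0 CPM in Thra1PV/+ and at 172.4, 318.4, 191.5 and 154.6 CPM in WT. Thra1PV/+ library 2 was the lowest and WT library 2 the highest, and the other 6 libraries were interleaved. For Pgrmc1 the log2 fold change was -0.28 (SE 0.29, edgeR adjusted p = 0.825; exact permutation p = 0.429), and 0.02 without WT replicate 2.

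Greb1, an estrogen receptor cofactor whose transcription follows estrogen closely, lies on chromosome 12 at 16670615 to 16800886 on the minus strand, with an antisense transcript annotated on the other strand. It stood at 28.2, 23.1, 38.4 and 79.1 CPM in Thra1PV/+ and at 35.1, 67.6, 36.3 and 43.2 CPM in WT. Here Thra1PV/+ library 4, not library 1, was the highest. Greb1 had a log2 fold change of -0.11 (SE 0.40, edgeR adjusted p = 0.962; exact permutation p = 0.6), -0.61 without that library and 0.17 without WT replicate 2.

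Fkbp5 encodes a co-chaperone of the steroid receptors that lowers the hormone affinity of the glucocorticoid receptor and is induced by it. It stood at 15.02, 14.3, 11.03 and 10.3 CPM in Thra1PV/+ and at 32.8, 41.3, 6.15 and 14.7 CPM in WT. The 4 Thra1PV/+ libraries were within 1.45-fold of each other, while the highest WT library was 6.72 times the lowest, and WT library 3 lay below every Thra1PV/+ library. The log2 fold change was -0.91 (SE 0.52, edgeR adjusted p = 0.635; exact permutation p = 0.371), the largest in size of the 8, and it ran from -1.21 to -0.47 when each library was left out. The adjusted p over all settings tried was 0.287 to 0.924.

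**Figure D2:**
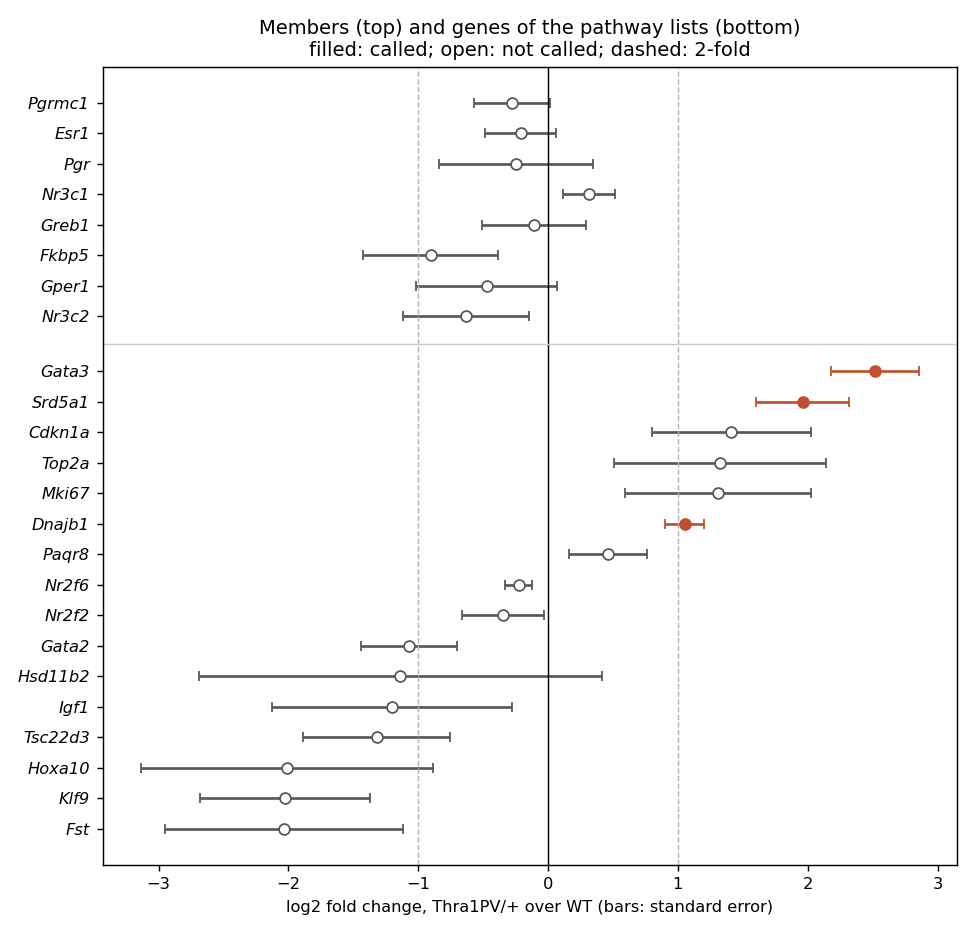
Log2 fold change of Thra1PV/+ over WT from edgeR on the horizontal axis, with its standard error as the bar, for the 8 tested members in order of TPM and for the named genes of the pathway and cycle lists; filled points were called, open points were not, and dashed lines mark a fold change of 2. All 8 members are open and lie within 2-fold, and Gata3, Srd5a1 and Dnajb1 are the filled points.

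The spread of the members followed a few libraries. Thra1PV/+ library 1 was the highest of its genotype for 7 of the 9 members and Thra1PV/+ library 2 the lowest for 6, while 8 of 9 were at their WT maximum in WT library 2. The share of all tested genes with these places was not counted. Over all tested genes, deviations from the genotype mean in WT library 2 correlated at 0.56 with Thra1PV/+ library 1 and at -0.44 with Thra1PV/+ library 2. The libraries thus deviated in common over all tested genes too, so the pattern cannot be read as particular to the members. The SD of log2 CPM between libraries of 1 genotype was larger in WT for 4 of 8 tested members, against 66.0% of all tested genes. Pgr had an SD of 1.01 in Thra1PV/+ and 0.89 in WT, which exceeded 87.9% and 77.6% of tested genes. Fkbp5 had an SD of 0.27 in Thra1PV/+ and 1.24 in WT, exceeding 39.2% and 88.2% of genes. Nr3c1 was the steadiest in WT, with an SD of 0.30 in Thra1PV/+ and 0.28 in WT. These compare with medians over all tested genes of 0.35 in Thra1PV/+ and 0.46 in WT. No test of these SDs was made.

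For the 3 of the 8 tested members that varied most over the libraries, the genes with the most similar profile were found by the root mean square difference of log2 CPM after each gene was centred on its mean. The nearest to Pgr was Gm16485, at a distance of 0.127, against a median of 0.882 over all genes compared. Gm16485 lies on chromosome 9 at 8971791 to 8975773 on the same strand, beginning just past the annotated end of Pgr. Its levels were 42.5, 8.71, 14.6 and 24.2 CPM in Thra1PV/+ and 25.3, 60.1, 13.6 and 14.7 CPM in WT. Reads of these neighbours may not be fully separated. The next were Maoa, a monoamine oxidase, at 0.281 and Crtap, a collagen-processing protein, at 0.282.

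Fkbp5 was followed most closely by Agpat4, an enzyme of phospholipid synthesis, at 0.337, by Sept4, a septin, at 0.364 and by Suox, the sulfite oxidase, at 0.368, against a median of 0.889. Gper1 was followed by Tmem229b at 0.295, by Slc7a11, the cystine and glutamate exchanger, at 0.340 and by Osbpl6, an oxysterol-binding protein relative, at 0.363, against a median of 0.819. None of these 9 neighbours was called. They share with the member the libraries in which it was high, with WT library 2 the highest for each gene near Pgr, Fkbp5 or Gper1. Both points follow largely from the choice of genes by likeness to an uncalled member over the same libraries.

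Genes that respond to the receptors were then counted by list. Of 25 estrogen-response genes 24 were tested, and 0 were called by edgeR, DESeq2 or voom, with 1 at an unadjusted p under 0.05 in edgeR. Their median log2 fold change was -0.16, with 15 of 24 below 0. The SD was larger in WT for 21 of 24, against 66.0% of all tested genes. Cdkn1a, the cell cycle inhibitor p21, stood at 44.1, 140.8, 117.8 and 80.6 CPM in Thra1PV/+ and at 28.0, 7.47, 41.3 and 67.4 CPM in WT (log2 fold change 1.41, SE 0.61, edgeR adjusted p = 0.509). Igf1, a stromal growth factor that passes the estrogen signal to the epithelium, stood at 164.2, 29.6, 35.9 and 55.2 CPM in Thra1PV/+ and at 242.0, 343.0, 15.3 and 55.9 CPM in WT (-1.20, SE 0.92, edgeR adjusted p = 0.741). Igf1 was highest in the same 3 libraries as the stroma sum, WT libraries 1 and 2 and Thra1PV/+ library 1.

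Of 24 progesterone-response genes 22 were tested, and 0 were called by edgeR or voom and 1 by DESeq2, with 3 at an unadjusted p under 0.05 in edgeR, all lower. Their median log2 fold change was -0.88, with 18 of 22 below 0. Fst, the activin-binding protein follistatin, stood at 2.55, 4.81, 8.48 and 4.15 CPM in Thra1PV/+ and at 38.2, 34.4, 1.11 and 8.14 CPM in WT (log2 fold change -2.04, SE 0.91, edgeR adjusted p = 0.528). Hoxa10, a homeobox gene of the stroma needed for implantation, stood at 169.1, 11.5, 17.2 and 35.9 CPM in Thra1PV/+ and at 533.8, 314.9, 24.3 and 67.4 CPM in WT (-2.01, SE 1.12, edgeR adjusted p = 0.627). Both were highest in WT libraries 1 and 2, and for both the genotypes overlapped. Hoxa10 and 3 more genes of this list also stand in the stroma marker list, whose 9 genes all had log2 fold changes below 0, with a median of -0.89.

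Of 24 glucocorticoid-response genes all were tested, and 0 were called by edgeR or voom and 2 by DESeq2, with 4 at an unadjusted p under 0.05 in edgeR, 3 of them lower. Their median log2 fold change was -0.47, with 18 of 24 below 0. Klf9, a zinc finger factor induced by glucocorticoids that also interacts with the progesterone receptor in endometrium, stood at 16.1, 3.59, 5.62 and 4.22 CPM in Thra1PV/+ and at 54.1, 38.5, 10.7 and 17.1 CPM in WT. The study describes Klf9 as a direct target of thyroid hormone receptors too, and reports lower Klf9 in the mutant uterus, so Klf9 is not a readout of steroid receptors alone. Its log2 fold change was -2.02 (SE 0.65, edgeR adjusted p = 0.351), and DESeq2 gave an adjusted p of 0.0524. Tsc22d3, the leucine zipper protein GILZ, stood at 75.4, 21.7, 41.1 and 49.1 CPM in Thra1PV/+ and at 151.1, 216.7, 54.1 and 45.4 CPM in WT (-1.32, SE 0.57, edgeR adjusted p = 0.505). Zbtb16, the zinc finger factor that DESeq2 also called and that was picked out after its values were seen, stood at 2.46, 0.20, 0.27 and 0.52 CPM in Thra1PV/+ and at 12.1, 17.3, 0.64 and 1.36 CPM in WT. WT libraries 1 and 2 were the highest for Fkbp5, Klf9, Tsc22d3 and Zbtb16 alike, and they also had the highest stroma sums of the 8 libraries, 3972 and 3924 CPM. Thra1PV/+ library 1 had the next stroma sum, 3255 CPM. At 15.02, 16.1, 75.4 and 2.46 CPM for these genes, it was the highest of its genotype but below both of those WT libraries. Not all of the list followed these libraries. WT library 2 was the lowest of the 8 for Cebpd, Cebpb, Nfkbia, Dusp1 and Ddit4. Its values for those genes were 26.7, 32.9, 99.3, 8.99 and 35.1 CPM. The part of stroma in any of these values was not tested.

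Of 9 mineralocorticoid-response genes 0 were called by edgeR or voom and 1 by DESeq2, with 3 at an unadjusted p under 0.05 in edgeR, 1 higher and 2 lower, and their median log2 fold change was -0.11. Scnn1g, a subunit of the epithelial sodium channel picked out after its values were seen, was the higher one. It stood at 4.81, 2.90, 1.47 and 0.385 CPM in Thra1PV/+ and at 0.114, 0.036, 0.199 and 0.209 CPM in WT, with no overlap (log2 fold change 4.08, SE 0.86, edgeR adjusted p = 0.114). The WT values rested on only 6, 2, 10 and 10 counts, so the size of the fold change is uncertain. Scnn1g was not tested where at least 10 counts were required in every library. The call was made with upper quartile or library size scaling, and the squamous marker sum, whose part was not tested, separated the genotypes in the same direction. Hsd11b2 encodes the enzyme that inactivates glucocorticoids and so keeps them off the mineralocorticoid receptor. It stood at 218.2, 2.27, 1.84 and 4.13 CPM in Thra1PV/+ and at 103.9, 308.7, 57.4 and 28.2 CPM in WT. Thra1PV/+ library 1 thus lay among the WT libraries and the other 3 below all of them. With all 8 libraries the log2 fold change was -1.14 (SE 1.55, edgeR adjusted p = 0.872), and -5.44 (edgeR adjusted p = 0.0843) without Thra1PV/+ replicate 1.

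**Figure D3:**
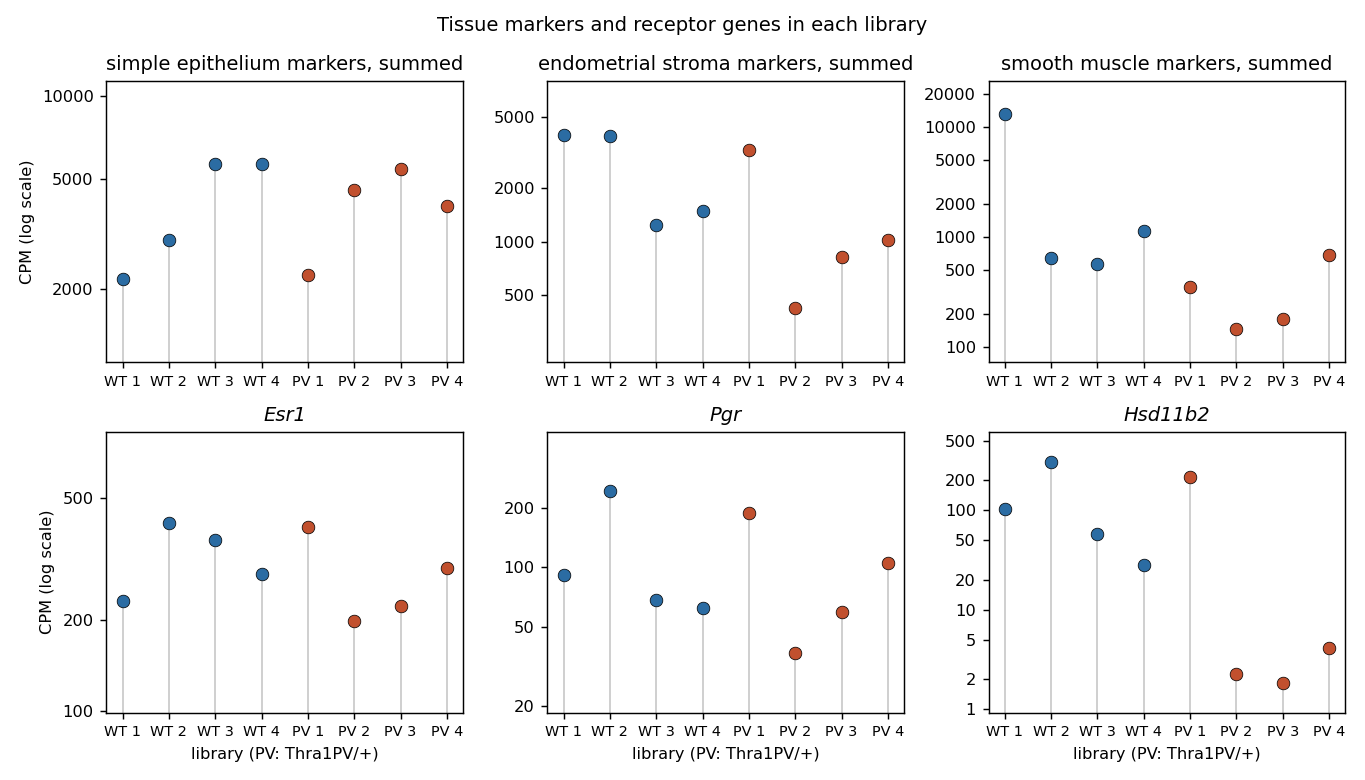
CPM on a log axis in each of the 8 libraries (PV stands for Thra1PV/+) for the summed simple epithelium, stroma and smooth muscle markers in the upper row and for Esr1, Pgr and Hsd11b2 in the lower row. WT library 1 reaches 13143 CPM on the smooth muscle sum, and Thra1PV/+ library 1 stands with WT libraries 1 and 2 on the stroma sum and on Hsd11b2.

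Apart from tissue markers, only the lists of chaperones, coregulators and steroid-metabolising enzymes held a call in edgeR, 1 in each. Over all tested genes 0.990% were called, and the lists were chosen with earlier results of these data known. Of 15 receptor chaperones 1 was called higher and 0 lower. Their median log2 fold change was 0.26, against -0.05 for all tested genes. Of the 15, 12 were above 0, and the share of all tested genes above 0 was not counted. Dnajb1, a heat shock protein 40 co-chaperone that starts the loading of receptors onto heat shock protein 90, rose in Thra1PV/+. It stood at 117.2, 129.2, 157.7 and 144.0 CPM in Thra1PV/+ and at 73.6, 59.6, 57.2 and 73.8 CPM in WT, with no overlap (log2 fold change 1.05, SE 0.15, edgeR adjusted p = 0.0211). Its fold change lay close to the threshold, and the call was lost without Thra1PV/+ replicate 3, at a log2 fold change of 0.98. The squamous marker sum separated the genotypes in the same direction as Dnajb1, but not the order of libraries within WT, and its part in the result was not tested. Fkbp5 is the gene of this list with the largest difference in size below 0.

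Of 18 coregulators and pioneer factors 1 was called higher and 0 lower, with a median log2 fold change of -0.01. Gata3, a zinc finger factor that works with estrogen receptor alpha in mammary cells and is also expressed in stratified epithelia, rose in Thra1PV/+. It stood at 12.9, 12.8, 9.87 and 9.47 CPM in Thra1PV/+ and at 2.63, 2.60, 1.11 and 1.53 CPM in WT (log2 fold change 2.51, SE 0.34, edgeR adjusted p = 0.0192). Every Thra1PV/+ library was above every WT library, in the same direction as the sum of squamous markers, whose part in the result was not tested. The call stood in each of the 8 fits that left out 1 library. Gata2, which acts with the progesterone receptor in the uterus, stood at 110.1, 80.1, 86.3 and 97.0 CPM in Thra1PV/+ and at 216.6, 346.5, 112.8 and 108.7 CPM in WT (-1.07, SE 0.37, edgeR adjusted p = 0.384).

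Of 16 tested steroid-metabolising enzymes 1 was called higher and 0 lower, with a median log2 fold change of -0.13. Srd5a1, a steroid 5-alpha-reductase that reduces testosterone and progesterone, rose in Thra1PV/+. It stood at 54.3, 87.1, 64.2 and 55.8 CPM in Thra1PV/+ and at 9.69, 12.6, 29.9 and 14.8 CPM in WT, with no overlap (log2 fold change 1.96, SE 0.36, edgeR adjusted p = 0.0657). Srd5a1 was called in 1 of the 8 fits that left out a library, the one without WT replicate 3, and its adjusted p in those fits was 0.0123 to 0.198. For Srd5a1 too, the squamous marker sum separated the genotypes in the same direction, and its part was not tested. Akr1c18, another enzyme of this list picked out after its values were seen, was not called in the main fit. Leaving out each library in turn gave it log2 fold changes of 4.01 to 6.21, with edgeR adjusted p of 0.0707 to 0.560. It was called in 1 of those 8 fits, without WT replicate 3, and by DESeq2, voom and log2 TPM. The genes for the first steps of steroid synthesis, Cyp11a1 and Cyp17a1, and for aromatase, Cyp19a1, were too low to be tested.

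The remaining lists held no call in edgeR. Of 10 membrane steroid-binding proteins 0 were called by edgeR, DESeq2 or voom and 0 had an unadjusted p under 0.05 in edgeR, with a median log2 fold change of -0.23. Gper1 had the largest difference in size among those averaging 2 or more on the log2 CPM scale, and Paqr8, a membrane progestin receptor, the next (0.46, SE 0.30, edgeR adjusted p = 0.674). Of 7 related nuclear receptors that were tested 0 were called by edgeR and 1 each by DESeq2 and voom, with 1 at an unadjusted p under 0.05 in edgeR. Nr2f2, a stromal orphan receptor downstream of progesterone, had a log2 fold change of -0.35 (SE 0.32, edgeR adjusted p = 0.786) and its relative Nr2f6 of -0.23 (SE 0.10, edgeR adjusted p = 0.533). Nr2f6 stood at 81.5 to 86.7 CPM in Thra1PV/+ and at 92.8 to 107.8 CPM in WT, so the genotypes did not overlap although the difference was below 2-fold. Esrrg, the orphan estrogen-related receptor gamma, picked out after its values were seen, was the other gene of this list without overlap. It stood at 4.61, 4.04, 3.33 and 3.15 CPM in Thra1PV/+ and at 0.477, 1.07, 0.119 and 0.628 CPM in WT (log2 fold change 2.72, SE 0.58, edgeR adjusted p = 0.120). Every Thra1PV/+ library was above every WT library, as for the squamous marker sum, whose part was not tested.

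The last question was how far libraries labelled as a single cycle phase differed on genes that follow the cycle. Of 20 such genes 0 were called by edgeR or voom and 1 by DESeq2, with 1 at an unadjusted p under 0.05 in edgeR, and their median log2 fold change was 0.23. Their median SD between libraries was 1.06 in Thra1PV/+ and 1.46 in WT, against 0.35 and 0.46 for all tested genes, and 15 of 20 were more variable in WT. Without Thra1PV/+ replicate 1 the median SD in Thra1PV/+ was 0.52. The genes given next, other than Mki67 and Top2a, were picked out after their values were seen.

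Ltf, which encodes the secreted iron-binding protein lactotransferrin and is a long-used marker of estrogen action on mouse uterine epithelium, stood at 4534, 9800, 11264 and 8482 CPM in Thra1PV/+ and at 2853, 1290, 16021 and 12221 CPM in WT. C3, the complement component made by estrogen-stimulated epithelium, stood at 499, 4403, 5417 and 3525 CPM in Thra1PV/+ and at 1668, 415, 18372 and 5922 CPM in WT. Lcn2, the siderophore-binding protein lipocalin, stood at 794, 6795, 8691 and 2894 CPM in Thra1PV/+ and at 2362, 85.7, 10095 and 7380 CPM in WT. For all 3 genes, and for Padi1 and Muc1, the 3 lowest libraries were WT libraries 1 and 2 and Thra1PV/+ library 1, the same ones that were highest on the stroma sum. They were also the lowest on the simple epithelium sum, at 2167, 3002 and 2237 CPM against 3969 to 5643 CPM in the other 5 libraries, and the part of epithelial content in these values was not tested. WT library 3 was the highest of the 8 for all 5 genes. The same split did not hold for Padi2 and Aqp5, also on the list of genes that follow the cycle. For Padi2, WT library 2 stood at 186 CPM, above WT library 4 at 123 CPM. For Aqp5, Thra1PV/+ library 1 stood at 57.7 CPM, above Thra1PV/+ library 2 at 47.5 CPM.

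Ihh, the hedgehog ligand that epithelium makes in response to progesterone, stood at 24.7, 6.11, 10.1 and 41.5 CPM in Thra1PV/+ and at 41.6, 121.8, 0.617 and 23.0 CPM in WT. WT library 2 was therefore the highest and WT library 3 the lowest for Ihh, the reverse of their places for C3. Mki67, a marker of dividing cells, stood at 63.3, 24.3, 6.97 and 17.9 CPM in Thra1PV/+ and at 5.65, 24.5, 6.25 and 9.0 CPM in WT (log2 fold change 1.31, SE 0.72, edgeR adjusted p = 0.615). Top2a, the topoisomerase of dividing cells, had a log2 fold change of 1.32 (SE 0.82, edgeR adjusted p = 0.658). Thra1PV/+ library 1, the highest of its genotype for Esr1 and Pgr, was also the highest of all for Mki67 and Top2a.

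**Figure D4:**
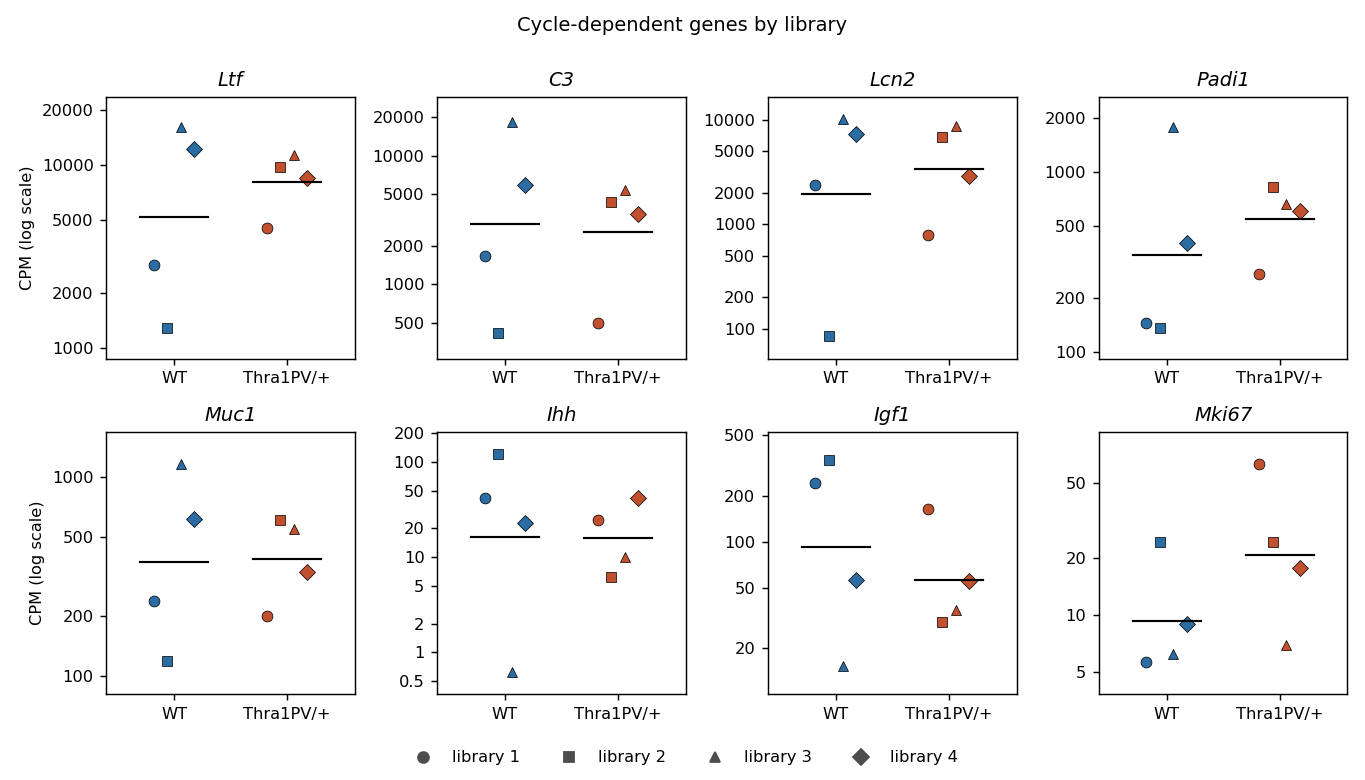
CPM on a log axis for 8 genes that follow the cycle in the 4 WT and 4 Thra1PV/+ libraries, 1 point a library with its replicate number as the symbol and the geometric mean as a line. For Ltf, C3, Lcn2, Padi1 and Muc1 the WT libraries split into 1 and 2 below 3 and 4, and Thra1PV/+ library 1 lies below the other 3 of its genotype.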

How the data were processed

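RNA-seq libraries were made by the authors from laser-captured endometrium (stranded mRNA kit, paired-end reads), trimmed with Trimmomatic and quantified with salmon against mm10. Their versions are not given in the sources used here. The authors deposited estimated counts per gene, which were rounded here, and TPM values, which had been brought to a common distribution across libraries, so TPM served only for levels between genes and as an alternative. One TPM column (1 of no listed sample) was not used.

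Counts were filtered (filterByExpr, minimum count 10), scaled by TMM and tested with edgeR 4.0.16 (quasi-likelihood) in R 4.3.3, with Benjamini-Hochberg adjustment over all tested genes. Calls needed at least a 2-fold difference and an adjusted p no higher than 0.1. CPM uses TMM library sizes, and SDs use log2 CPM with a prior count of 2. Library totals of 48791883 to 59819099 limit precision for Esr2. The alternatives were DESeq2 1.42.0, limma 3.58.1 on voom or log2 TPM values, other scalings and filters, a replicate block, and each library left out. Scripts were tested on simulated counts.

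Libraries were grouped by the labels' genotype. The labels name replicates and the study states 4 mice a genotype, but which library came from which animal is not stated. The p-values set the genotype difference against the spread between these libraries. The members and gene lists were chosen with earlier results of these data known. By rule, the text names all members, up to 4 called genes of each list, otherwise the genes of mean log2 CPM of at least 2 with the largest differences, up to 2 in all, and the 3 genes most like each of the 3 most variable tested members.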

Additional observations from a re-analysis of the deposited data

Results flagged for a closer look

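In 1 of the 82 groups of 4 libraries examined, a library lay far from the other 3, where chance alone would give about 4.1 at 1 in 20. Hsd11b2, the enzyme that inactivates glucocorticoids, had a log2 CPM of 7.77 in Thra1PV/+ library 1, which is 218 CPM, while the other 3 Thra1PV/+ libraries stood at 1.84 to 4.13 CPM. The same library had a stroma marker sum of 3255 CPM against 423 to 1024 CPM in the others of its genotype, and the part of stroma in the value was not tested.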

How the results depend on the processing

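No member was called under any alternative, and the fitted differences of Esr1, Nr3c1, Nr3c2 and Fkbp5 kept their direction throughout. Leaving out each library in turn gave log2 fold changes of -0.73 to 0.43 for Pgr (0.03 without Thra1PV/+ replicate 2 and 0.43 without WT replicate 2), -0.70 to 0.09 for Gper1 (0.0886 without WT replicate 2), -0.44 to 0.02 for Pgrmc1 (0.0236 without WT replicate 2), and -0.61 to 0.17 for Greb1 (0.09 without Thra1PV/+ replicate 1, 0.09 without replicate 2 and 0.17 without WT replicate 2).

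The number of genes called, 180, became 791 with DESeq2 (which tested 29984 genes), 311 with voom, 81 with at least 10 counts in every library, 119 at an adjusted p of 0.05 and 81 to 167 when each library was left out (116 without Thra1PV/+ replicate 2, 81 without replicate 3 and 114 without WT replicate 4). With the replicate number as a block it was 82, and Dnajb1 and Srd5a1 were lost, so 0 chaperones and 0 enzymes were called. The deviations of same-numbered libraries correlated at 0.27, -0.44, 0.34 and -0.16, and Thra1PV/+ library 1 correlated best with WT library 2. Such correlations cannot show whether same-numbered animals were paired, which the labels do not state.

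DESeq2 called 1 progesterone-response gene (Zbtb16), 2 glucocorticoid-response genes (Klf9 and Zbtb16), 1 mineralocorticoid-response gene (Scnn1g), 2 coregulators (Foxa1 and Gata3), 1 related receptor (Esrrg) and 2 enzymes (Srd5a1 and Akr1c18). Upper quartile or library size scaling called 1 mineralocorticoid-response gene. Voom and log2 TPM with a pseudocount of 0.1 called 1 related receptor, and voom and log2 TPM with either pseudocount called 2 enzymes. At an adjusted p of 0.05, 0 enzymes were called. With each library left out the calls ran from 0 to 1 for mineralocorticoid-response genes, chaperones and related receptors and from 0 to 2 for enzymes. The median SD of cycle-dependent genes ran from 0.52 to 1.18 in Thra1PV/+ and from 1.13 to 1.603 in WT. The cause of these changes was not tested.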
